A study of Caenorhabditis elegans with 22 samples.

Results

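The genes described here are the worm neuropeptide genes of the nlp and flp families, taken as every gene whose annotated symbol is nlp- or flp- followed by a number, with nlp-27 to nlp-31 left out. The array carried probe sets for 78 of them, 25 flp and 53 nlp genes, among 17118 genes that have a probe set of 1 symbol. Of these 78, 57 reached the level at which a probe set was tested, 21 flp and 36 nlp genes, and 21 did not. Expression was measured on 22 Affymetrix arrays of whole Caenorhabditis elegans, young adult hermaphrodites from an egg lay timed to 4 hours and picked by hand. The groups were isp-1(qm150) ced-4(n1162) double mutants, nuo-6(qm200) ced-4(n1162) double mutants, isp-1(qm150) mutants, nuo-6(qm200) mutants, wild type on 0.1 mM paraquat, ced-4(n1162) mutants and untreated wild type. Each had 3 arrays except untreated wild type, which had 4. All strains are in the Bristol N2 background, and the ced-4 single mutant carries the same ced-4 allele as both double mutants. The iron-sulfur protein of respiratory complex III is the product of isp-1, nuo-6 encodes a subunit of complex I, and ced-4 the activator of the caspase CED-3 in programmed cell death. Paraquat makes superoxide. The study looked for an expression pattern that the mitochondrial mutants share with paraquat, and the double mutants place each mitochondrial mutation in a ced-4 background. The alleles are present in every cell, and a line is 1 genotype for which no second allele was measured.

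Neuropeptides are made as precursors that carry several peptides, are cut by proprotein convertases and trimmed by carboxypeptidases, are often amidated at their C-terminus, and leave the cell by fusion of dense core vesicles. The flp genes encode FMRFamide-like peptides, and the nlp genes encode all kinds of other peptides apart from insulins. Most act on G protein-coupled receptors and are known for setting states such as arousal, sleep, feeding and egg laying, and some nlp genes are expressed in the intestine or the epidermis.

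Values are the deposited log2 expression values, where 1 unit is a doubling. A gene was tested if it reached 3.68, the median of the table, on at least 3 arrays, and where the lower group of a called difference lay under 3.68 on every array the size of that difference is uncertain and the height of the other group above 3.68 is given. A gene was called when limma's adjusted p was under 0.05, and the share of all 9652 tested genes called the same way is printed beside each main count of nlp and flp genes. For the alternative fits that share is given only where wild type replicate 1 alone was left out. Elsewhere, whether all tested genes changed alike was not tested. Wild type values are listed in the order of the replicate numbers 1 to 4, the others in the order 1 to 3. Samples are labelled as biological replicates, without a statement that separate cultures were used, so a p-value covers only how these arrays vary, which may be technical. Whole worms were measured, so fewer cells that make a peptide and less RNA per cell cannot be told apart.

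The ced-4 transcript checked the labels for 3 of the genotypes: it lay between 4.94 and 5.89 on the 9 arrays that carry ced-4(n1162), and between 7.31 and 8.54 on the other 13. The isp-1 and nuo-6 transcripts were not lower in their own mutants and check nothing. Wild type replicate 1 stood apart from the other wild type arrays in these genes. It was the lowest wild type array for 40 of the 57 tested genes, with a median over them of 5.08, against 5.85, 6.51 and 6.20 on replicates 2, 3 and 4. Its mean over 14 tested neuron markers was 5.87, against 5.91 to 6.02 on the other wild type arrays, and its mean over 9 peptide processing genes was 7.48, against 8.16 to 8.59. Against wild type, the counts and medians over the nlp and flp genes are given with and without it, and so are a named gene's differences where leaving it out moved them by over 1.5 times or changed the call. isp-1 replicate 1 correlated best with nuo-6 replicate 1, at 0.996, against 0.986 and 0.989 with the other isp-1 arrays, over all 22548 probe sets that are not controls. Over the nlp and flp genes the mean of a group varied between groups by a median of 1.36 on the log2 scale, and by more than 1 for 45 of the 57. The isp-1 ced-4 double mutant had the lowest mean of the 7 groups for 26 genes and the highest for 1, whereas nuo-6 ced-4 had the highest for 19 and the lowest for 1. The spans and counts of highest and lowest means were not taken over all tested genes, so they set these genes apart from no others.

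**Figure D1:**
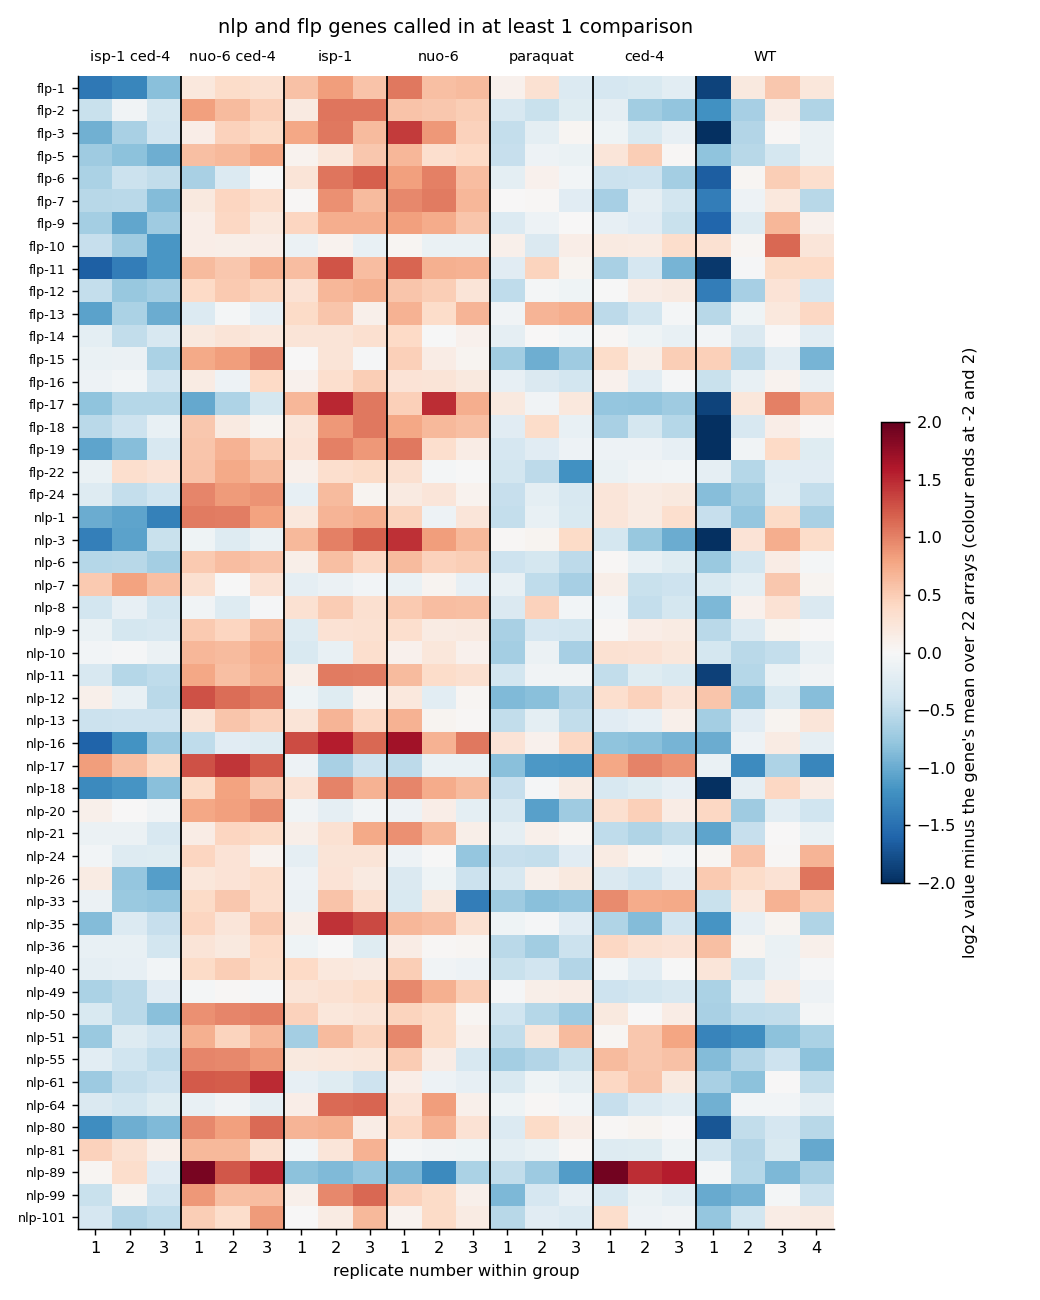
Log2 values of the 51 nlp and flp genes called in at least 1 comparison, each row 1 gene and each column 1 array, shown as the difference from the gene's mean over 22 arrays, red above and blue below, with the colour ending at -2 and 2. The 3 isp-1 ced-4 columns are blue in most rows, the nuo-6 ced-4, isp-1 and nuo-6 columns are red in most, and wild type replicate 1 is darker blue than the other wild type columns in many.

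In isp-1, 28 of the 57 tested neuropeptide genes rose against wild type, 49.1% of them beside 13% of all tested genes, and none fell, beside 10.3% of all tested genes. The median difference over the 57 was 0.60, and 0.05 over all tested genes, and without wild type replicate 1 these were 0.46 and 0.06. The 28 were 13 flp and 15 nlp genes, 14 of them by at least 2-fold, and 49 of the 57 had a difference above 0. At an unadjusted p under 0.05, 38 of the 57 passed, 66.7% beside 36.7% of all tested genes. The largest rise was that of nlp-16, at 3.07-fold, and flp-3, nlp-11, flp-2 and nlp-99 rose 2.53-fold to 2.95-fold.

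Among the FMRFamide-like genes, flp-2, a peptide gene with a role in antioxidant signalling and arousal, stood at 6.62, 7.52 and 7.51 on the isp-1 arrays, against 5.24, 5.79, 6.60 and 5.85 in wild type. The lowest isp-1 array, replicate 1, lay just above wild type replicate 3, and the groups did not overlap. flp-2 rose by 1.35 (SE 0.26, adjusted p = 0.00139), and by 1.14 without wild type replicate 1. flp-3 stood at 6.40, 6.69 and 6.26 in isp-1, against 3.34, 5.05, 5.66 and 5.51 in wild type. All isp-1 values lay above all wild type values, with wild type replicate 1 far below the rest, and the rise of 1.56 (SE 0.38, adjusted p = 0.0073) became 1.04 without that array. flp-1, which acts in locomotion and in antioxidant signalling from neurons to the intestine, stood at 9.16, 9.41 and 9.14 in isp-1, against 6.73, 8.77, 9.12 and 8.79 in wild type. Its isp-1 values lay just above the highest wild type value, and the difference of 0.89 (SE 0.38, adjusted p = 0.1) did not pass the threshold, nor did the 0.34 without wild type replicate 1 (adjusted p = 0.174).

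Among the nlp genes, nlp-16 stood at 6.06, 6.32 and 5.91 in isp-1, against 3.76, 4.65, 4.92 and 4.58 in wild type. The groups lay almost 1 unit apart, and the rise was 1.62 (SE 0.26, adjusted p = 0.000322), or 1.38 without wild type replicate 1. A second probe set for nlp-16 gave 1.09 (adjusted p = 0.00381). nlp-35 stood at 3.62, 4.94 and 4.82 in isp-1, against 2.32, 3.33, 3.54 and 2.89 in wild type. Replicates 2 and 3 of isp-1 were far above wild type and replicate 1 barely so, and nlp-35 was called higher (fitted difference 1.44, SE 0.29, adjusted p = 0.00205). Wild type lay under 3.68 on every array, so the size is uncertain, and the isp-1 mean was 0.78 above 3.68. nlp-11, a peptide gene of the sleep-promoting neuron RIS, stood at 6.95, 7.87 and 7.87 in isp-1, against 4.97, 6.27, 6.71 and 6.77 in wild type. The arrangement was the same as for nlp-35, with isp-1 replicate 1 closest to wild type, and the rise was 1.38 (SE 0.31, adjusted p = 0.00465), or 0.98 without wild type replicate 1. nlp-99 stood at 6.52, 7.37 and 7.57 in isp-1, against 5.42, 5.49, 6.37 and 5.98 in wild type. It did not overlap between the groups and rose by 1.34 (SE 0.25, adjusted p = 0.00133), but its second tested probe set differed by 0.42 and was not called (adjusted p = 0.229).

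The other called genes included peptide genes with known behavioural roles. flp-18, a feeding and foraging peptide, rose by 1.29, flp-11, the main sleep peptide of RIS, by 1.12, and flp-24, a peptide of the sleep neuron ALA, by 0.73. flp-7, which promotes fat loss, rose by 0.97, flp-6, a peptide of the thermosensory neuron AFD, by 1.04, and nlp-1, a peptide of the olfactory neuron AWC, by 0.92. nlp-49, which promotes arousal through the receptor SEB-3, rose by 0.50, and nlp-80 by 1.29. flp-19 at 1.27, nlp-51 at 1.13, nlp-64 at 1.12 and flp-12 at 1.08 completed those of at least 2-fold. The smallest called rises were those of flp-14 at 0.41 and flp-16 at 0.47. The call of flp-11 (adjusted p = 0.0495) ended without any of 5 arrays, wild type replicates 1 and 2 and each isp-1 array, with differences of 0.58 to 1.23. The calls of flp-18, flp-19 and nlp-51 ended without isp-1 replicate 2 or without replicate 3, at 1.13 to 1.22, 1.12 to 1.19 and 0.88 to 0.97, and without wild type replicate 1 flp-18 and flp-19 differed by 0.78 and 0.69. The call of flp-6 ended without wild type replicate 1 or 2 or isp-1 replicate 2 or 3, at 0.56 to 1.12. The calls of nlp-49, flp-16, flp-7 and flp-14 ended without isp-1 replicate 3, those of the first 3 also without isp-1 replicate 2, and those of nlp-49 and flp-16 also without wild type replicate 1, at 0.35 to 0.50, 0.38 to 0.46, 0.78 to 0.92 and 0.39.

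The count of 28 was 27 without wild type replicate 1, 47.4% beside 13.3% of all tested genes, but 17 without isp-1 replicate 2 and 16 without isp-1 replicate 3. When only the isp-1 and wild type arrays were fitted, 2 genes were called, and 4 when wild type replicate 1 was also left out. The share of all tested genes called in those fits was not taken.

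In nuo-6, 29 of the 57 genes rose against wild type, 50.9% beside 18.2% of all tested genes. Only nlp-24 and nlp-26 fell, 3.51% beside 15.7%. The median difference was 0.71 over the 57 and 0.03 over all tested genes, or 0.53 and 0.04 without wild type replicate 1, and 11 of the called genes changed by at least 2-fold. The 29 were 11 flp and 18 nlp genes. This comparison shares its wild type arrays with the one for isp-1, so the values are given side by side and their likeness was not tested.

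flp-3 had the largest rise in nuo-6, at 7.03, 6.50 and 6.10 on the nuo-6 arrays, against 3.34, 5.05, 5.66 and 5.51 in wild type. No values overlapped, and the rise of 1.65 (SE 0.38, adjusted p = 0.00325) was 1.14 without wild type replicate 1. flp-7 stood at 6.29, 6.35 and 5.99 in nuo-6, against 3.93, 5.23, 5.53 and 4.77 in wild type. It rose by 1.34 (SE 0.28, adjusted p = 0.00146), with the nuo-6 arrays close together and wild type replicate 1 low, and by 1.03 without that array. flp-18 stood at 8.38, 8.26 and 8.21 in nuo-6, against 5.50, 7.29, 7.75 and 7.63 in wild type. The nuo-6 arrays were again tight and all higher, and the rise was 1.24 (SE 0.37, adjusted p = 0.017). That call ended without nuo-6 replicate 1, at 1.19 (adjusted p = 0.0525), and without wild type replicate 1 the difference was 0.72.

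flp-2 stood at 7.03, 6.99 and 6.94 in nuo-6, against 5.24, 5.79, 6.60 and 5.85 in wild type. The nuo-6 arrays lay close to each other and above all wild type arrays, for a rise of 1.12 (SE 0.26, adjusted p = 0.00301), or 0.91 without wild type replicate 1. flp-1 stood at 9.63, 9.17 and 9.21 in nuo-6, against 6.73, 8.77, 9.12 and 8.79 in wild type. Its difference of 0.98 (SE 0.38, adjusted p = 0.0528) narrowly missed the threshold although the arrays did not overlap, and it was 0.44 without wild type replicate 1 (adjusted p = 0.0623).

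Of the nlp genes, nlp-51 stood at 7.95, 7.37 and 7.10 in nuo-6, against 5.67, 5.75, 6.18 and 6.37 in wild type. It rose by 1.48 (SE 0.31, adjusted p = 0.00169) without overlap. nlp-16 stood at 6.44, 5.45 and 5.81 in nuo-6, against the wild type values of 3.76 to 4.92 given above. Replicate 1 of nuo-6 was the highest of all 22 arrays for this gene, and the rise was 1.42 (SE 0.26, adjusted p = 0.000517). nlp-80 stood at 8.97, 9.26 and 8.85 in nuo-6, against 6.85, 8.07, 8.22 and 8.01 in wild type. All nuo-6 values were higher, by 1.24 on average (SE 0.26, adjusted p = 0.00147), or 0.92 without wild type replicate 1.

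The genes that fell did so by less. nlp-26 stood at 9.0, 9.21 and 8.88 in nuo-6, against 9.82, 9.66, 9.59 and 10.37 in wild type. Every nuo-6 array was below every wild type array, and the fall was 0.83 on the log2 scale (SE 0.23, adjusted p = 0.0115). nlp-24, an opioid-like peptide gene that acts on feeding during starvation, stood at 4.27, 4.37 and 3.60 in nuo-6, against 4.41, 4.95, 4.39 and 5.05 in wild type. Replicate 3 of nuo-6 was far the lowest value, the other nuo-6 arrays lay just below the lowest wild type array, and the difference was -0.62 (SE 0.19, adjusted p = 0.0197). The nlp-24 call ended without nuo-6 replicate 3 and without wild type replicate 2 or 4, at -0.54 to -0.38.

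Other rises in nuo-6 were those of nlp-18, which encodes ligands of a cholecystokinin-like receptor, at 1.22, flp-11 at 1.15, nlp-11 at 1.09, flp-6 at 1.02 and nlp-35 at 1.00, where wild type lay under 3.68 on every array and the nuo-6 mean was 0.34 above it. nlp-8, an orcokinin-like gene expressed in ALA, rose by 0.78, and nlp-49 by 0.91. Of these, the calls of nlp-18, flp-11 and flp-6 each ended without 2 to 4 of the arrays, nuo-6 replicates 1 and 2 among them in each case, at 1.12 to 1.24, 1.00 to 1.23 and 0.53 to 1.12. Without wild type replicate 1, nlp-18, flp-11, nlp-11 and flp-6 differed by 0.66, 0.60, 0.69 and 0.53. The count of 29 was 28 without wild type replicate 1, 49.1% beside 18.5% of all tested genes. It was between 20 and 36 without 1 array, but 10 when only the nuo-6 and wild type arrays were fitted. The 2 falls became 4 without wild type replicate 1, 7.02% beside 16.9% of all tested genes, and 0 with the replicate number as a block.

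**Figure D2:**
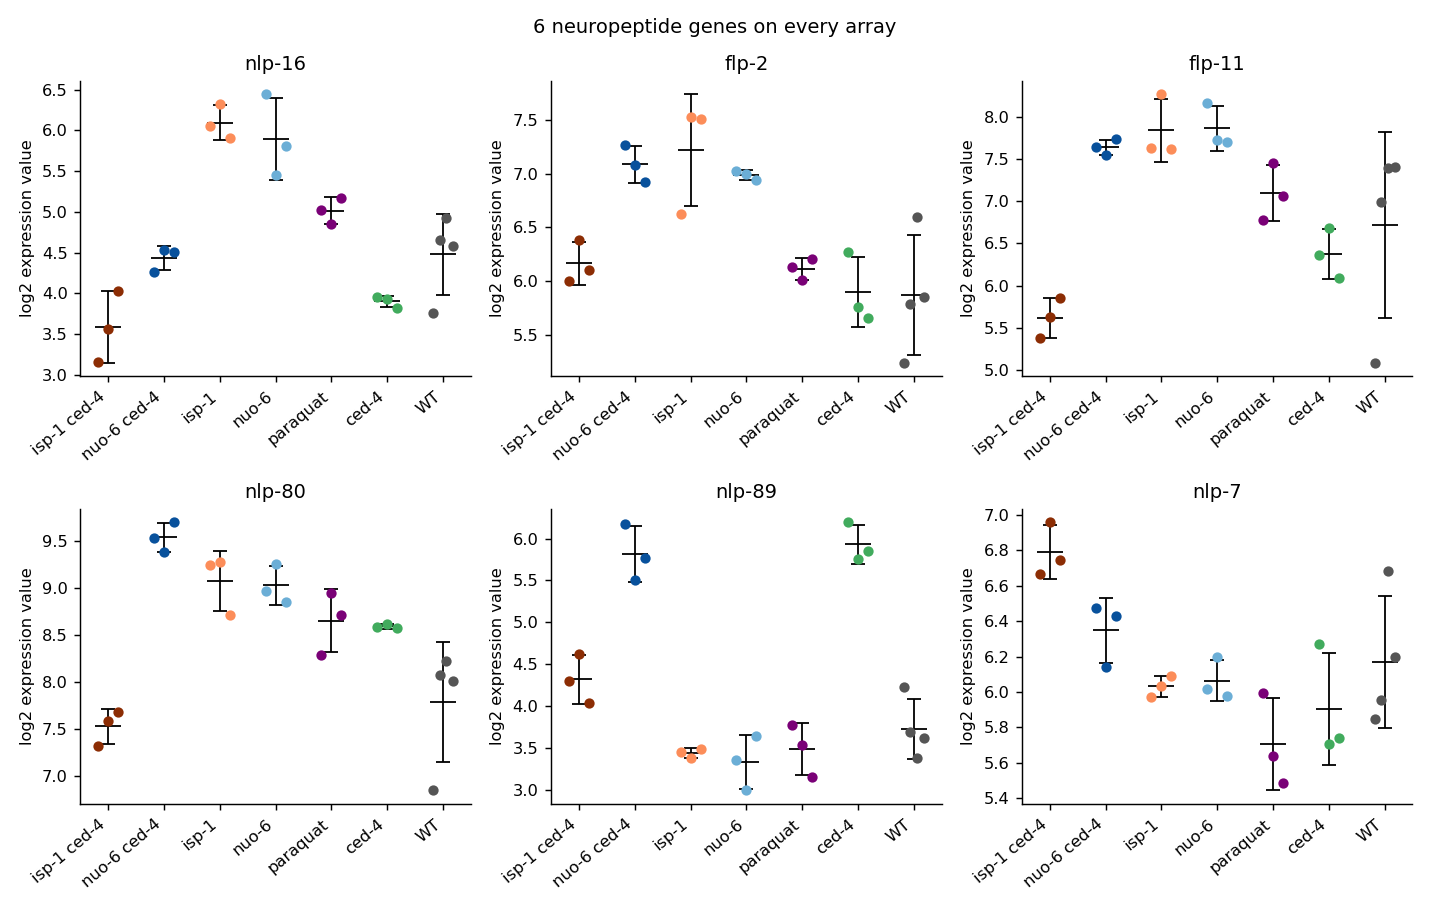
Log2 expression values of nlp-16, flp-2, flp-11, nlp-80, nlp-89 and nlp-7 on every array, chosen after their values were seen, with points for arrays and bars for the mean and SD of each group. nlp-16 is highest in isp-1 and nuo-6, flp-11 and nlp-80 are low in isp-1 ced-4 and high in nuo-6 ced-4, nlp-89 is highest in nuo-6 ced-4 and ced-4, and nlp-7 is highest in isp-1 ced-4; vertical axes differ between panels and do not start at 0.

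With paraquat, 3 of the 57 genes rose against wild type and 4 fell, 5.26% and 7.02% of them, beside 25.9% and 16.2% of all tested genes. The median difference over the 57 was 0.11 and that over all tested genes 0.10. Without wild type replicate 1 the median over the 57 turned to -0.12, where that over all tested genes was 0.12, so its sign rests on that array. No flp gene was called either way, but a second tested probe set of flp-15 was called lower, at -0.69 (adjusted p = 0.0194), where the one used differed by -0.49. nlp-51 had the largest rise and nlp-33 the largest fall. These values share the wild type arrays with those of isp-1 and nuo-6.

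nlp-51 stood at 6.49, 7.22 and 7.63 on the paraquat arrays, against 5.67, 5.75, 6.18 and 6.37 in wild type. The paraquat arrays spread widely but lay above wild type, and the rise of 1.12 (SE 0.31, adjusted p = 0.00743) lost its call without paraquat replicate 3, at 0.86. nlp-80 stood at 8.29, 8.95 and 8.72 with paraquat, against 6.85, 8.07, 8.22 and 8.01 in wild type. It rose by 0.86 (SE 0.26, adjusted p = 0.011), by 0.55 without wild type replicate 1, and was not called without paraquat replicate 2, at 0.71. nlp-81 stood at 4.08, 4.14 and 4.30 with paraquat, against 3.91, 3.68, 3.97 and 3.25 in wild type. Its rise of 0.47 (SE 0.18, adjusted p = 0.0388) lost its call without any of 5 arrays, the 3 paraquat arrays and wild type replicates 2 and 4, at 0.32 to 0.52.

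nlp-33, an epidermal gene related to the antimicrobial nlp genes, stood at 8.47, 8.35 and 8.40 with paraquat, against 8.73, 9.40, 9.88 and 9.70 in wild type. The 3 paraquat arrays were close together and all lower, a fall of 1.02 on the log2 scale (SE 0.30, adjusted p = 0.0107). nlp-24 stood at 3.91, 3.90 and 4.15 with paraquat, against 4.41, 4.95, 4.39 and 5.05 in wild type, a difference of -0.72 (SE 0.19, adjusted p = 0.00589). nlp-36 stood at 9.60, 9.45 and 9.71 with paraquat, against 10.75, 10.20, 10.01 and 10.25 in wild type. It fell by 0.72 (SE 0.14, adjusted p = 0.000398) without overlap. nlp-40, an intestinal peptide gene that triggers the muscle contractions of defecation, stood at 10.01, 10.08 and 9.88 with paraquat, against 10.70, 10.09, 10.35 and 10.44 in wild type. The groups did not overlap by a small margin, and the fall of 0.40 (SE 0.15, adjusted p = 0.0339) lost its call without any of 4 arrays, wild type replicates 1 and 4 and paraquat replicates 1 and 3, at -0.42 to -0.30.

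flp-1 stood at 8.65, 8.88 and 8.30 with paraquat and differed by 0.26 from wild type (adjusted p = 0.621), a value that was -0.29 without wild type replicate 1. flp-2 stood at 6.13, 6.01 and 6.20 and differed by 0.24 (adjusted p = 0.477), or by 0.03 without that array. Both overlapped with wild type. The split of 3 rises and 4 falls was 1 and 11 after cyclic loess between arrays and 7 and 3 after median centring, and these scalings moved the median of all tested genes to -0.04 and 0.22, where it was 0.10 before. Without wild type replicate 1 the counts were 3 and 7, 5.26% and 12.3% beside 27.1% and 17.1% of all tested genes, and over all single arrays left out they ran from 1 to 7 and from 3 to 8.

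In ced-4, 10 of the 57 genes rose and 1 fell, 17.5% and 1.75%, beside 7.01% and 7.86% of all tested genes. The 10 were flp-5, flp-24, nlp-10, nlp-17, nlp-50, nlp-51, nlp-55, nlp-61, nlp-80 and nlp-89, and nlp-26 fell. The median difference over the 57 was 0.12 and that over all tested genes -0.04, and without wild type replicate 1 the first shrank to 0.02 and the second was -0.03. nlp-89 and nlp-17 changed most, at 4.6-fold and 3.29-fold. Of 9 tested molting genes 8 also rose in ced-4, with a median difference of 2.57, of 11 hypodermis genes 6 rose and 1 fell, and of 11 sperm genes 2 fell. For 6 of the 8 molting and 3 of the 6 hypodermis genes that rose, wild type lay under 3.68 on every array, so these sizes are uncertain. The part of these lists in the neuropeptide values of ced-4 was not tested.

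nlp-89 stood at 6.20, 5.75 and 5.85 on the ced-4 arrays, against 4.23, 3.70, 3.38 and 3.62 in wild type. The groups lay more than 1 unit apart, and the rise was 2.20 (SE 0.22, adjusted p = 4.69e-07). nlp-17 stood at 7.88, 8.10 and 8.01 in ced-4, against 6.98, 5.85, 6.49 and 5.80 in wild type. All ced-4 arrays were higher and close together, for a rise of 1.72 (SE 0.23, adjusted p = 2.05e-05). nlp-51 stood at 7.04, 7.54 and 7.78 in ced-4, against 5.67, 5.75, 6.18 and 6.37 in wild type. It rose by 1.46 (SE 0.31, adjusted p = 0.00342), with ced-4 replicate 1 nearest to wild type.

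nlp-55 stood at 6.32, 6.21 and 6.27 in ced-4, against 4.81, 5.09, 5.27 and 4.85 in wild type, which is a rise of 1.26 (SE 0.15, adjusted p = 7.83e-06). nlp-61 stood at 4.55, 4.68 and 4.33 in ced-4, against 3.48, 3.31, 4.14 and 3.64 in wild type, which is a rise of 0.88 (SE 0.16, adjusted p = 0.000956). Neither overlapped with wild type. nlp-80 stood at 8.58, 8.62 and 8.57 in ced-4, against 6.85, 8.07, 8.22 and 8.01 in wild type. Its rise of 0.80 (SE 0.26, adjusted p = 0.0402) was 0.49 without wild type replicate 1 (adjusted p = 0.0508) and lost its call without any of 5 arrays, wild type replicates 1 and 4 and each ced-4 array, at 0.49 to 0.88. nlp-26 stood at 9.0, 8.90 and 9.08 in ced-4, against 9.82, 9.66, 9.59 and 10.37 in wild type. All ced-4 values were lower, but the fall of 0.87 (SE 0.23, adjusted p = 0.0173) lost its call without wild type replicate 4 or ced-4 replicate 1 or 2, at -0.87 to -0.70.

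flp-24 rose by 0.76, flp-5 by 0.71, nlp-10 by 0.65 and nlp-50 by 0.54. The nlp-50 call ended without wild type replicate 2 or ced-4 replicate 1 or 3, at 0.50 to 0.52. flp-1 stood at 8.24, 8.26 and 8.37 in ced-4 and differed by -0.06 from wild type (adjusted p = 0.936), but by -0.61 without wild type replicate 1 (adjusted p = 0.0163). flp-2 stood at 6.27, 5.76 and 5.66 in ced-4 and differed by 0.03 (adjusted p = 0.959), or by -0.18 without that array (adjusted p = 0.616). Without wild type replicate 1, 13 genes were called higher and 9 lower, 22.8% and 15.8% beside 10.9% and 14.8% of all tested genes, where 10 and 1 were called with it, so the count of falls rests on that array.

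Most of these genes were lower in the isp-1 ced-4 double mutant than in isp-1. In isp-1 ced-4 relative to isp-1, 34 of the 57 fell and 3 rose, 59.6% and 5.26%, beside 18% and 15.5% of all tested genes. The median difference over the 57 was -0.75, and 0.02 over all tested genes, and only 5 of the 57 had a difference above 0. The 34 were 17 flp and 17 nlp genes, and 21 of all called genes changed by at least 2-fold. nlp-16 fell 5.71-fold and flp-11 4.67-fold. This comparison uses no wild type array, and it shares the isp-1 arrays with isp-1 against wild type, where they stand on the other side of the difference.

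Of the flp genes, flp-11 stood at 5.38, 5.63 and 5.85 on the isp-1 ced-4 arrays, against 7.64, 8.27 and 7.62 in isp-1. The lowest isp-1 array lay well over 1 unit above the highest double mutant array, and the fall was 2.22 on the log2 scale (SE 0.42, adjusted p = 0.00106). flp-1 stood at 7.14, 7.26 and 7.74 in isp-1 ced-4, against 9.16, 9.41 and 9.14 in isp-1. Double mutant replicate 3 was the nearest to isp-1 and still far below it, and flp-1 fell by 1.86 (SE 0.40, adjusted p = 0.00228). flp-17, expressed in the carbon dioxide-sensing BAG neurons and a ligand of EGL-6 that inhibits egg laying, stood at 4.96, 5.21 and 5.21 in isp-1 ced-4, against 6.44, 7.29 and 6.83 in isp-1. No values overlapped, and the fall of 1.73 (SE 0.48, adjusted p = 0.0113) lost its call only without isp-1 replicate 2, at -1.51 (adjusted p = 0.0511). The other EGL-6 ligand gene, flp-10, fell by 0.72 (SE 0.22, adjusted p = 0.0185), a call that ended without isp-1 replicate 2 or double mutant replicate 3, at -0.65 to -0.52.

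Of the nlp genes, nlp-16 stood at 3.16, 3.56 and 4.03 in isp-1 ced-4, against 6.06, 6.32 and 5.91 in isp-1. The double mutant arrays spread over almost 1 unit and all lay far below isp-1, a fall of 2.51 (SE 0.27, adjusted p = 3.15e-05). Its second probe set differed by -2.15 (adjusted p = 4.88e-05). nlp-3, which acts from the HSN neurons to promote egg laying, stood at 4.21, 4.50 and 5.12 in isp-1 ced-4, against 6.23, 6.58 and 6.76 in isp-1. It fell by 1.91 (SE 0.50, adjusted p = 0.00785) without overlap. nlp-18 stood at 5.78, 5.85 and 6.20 in isp-1 ced-4, against 7.33, 8.03 and 7.73 in isp-1. All double mutant arrays were more than 1 unit lower, for a fall of 1.75 (SE 0.42, adjusted p = 0.00439). Against ced-4, nlp-16 differed by -0.31 in the double mutant and was not called, while its second probe set was called lower, at -0.81 (adjusted p = 0.0135).

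Further falls were those of nlp-1 by 1.68, nlp-80 by 1.55, nlp-35 by 1.50, flp-3 by 1.48, flp-19 by 1.46 and flp-9 by 1.43. For nlp-35 and for flp-13 the isp-1 ced-4 arrays all lay under 3.68, with the isp-1 means 0.78 and 0.63 above it. The flp-19 call ended without isp-1 replicate 2 or double mutant replicate 1 or 2, at -1.41 to -1.31. flp-13, a sleep peptide gene of ALA, fell by 1.24, and flp-24 and nlp-8, which are also expressed in ALA, by 0.55 and 0.68. The flp-24 call ended without isp-1 replicate 2 or double mutant replicate 2 or 3, at -0.54 to -0.32, and the nlp-8 call without each of the 6 arrays, at -0.75 to -0.62. flp-2 fell by 1.06 (SE 0.27, adjusted p = 0.00699). nlp-99 differed by -1.0, while its second tested probe set gave 0.44 and was not called (adjusted p = 0.211).

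The 3 genes that rose were nlp-7, nlp-17 and nlp-89. nlp-7, which inhibits egg laying, stood at 6.66, 6.96 and 6.75 in isp-1 ced-4, against 5.97, 6.03 and 6.09 in isp-1. All double mutant arrays were higher, by 0.76 on average (SE 0.20, adjusted p = 0.00735). nlp-17 stood at 7.94, 7.70 and 7.48 in isp-1 ced-4, against 7.0, 6.45 and 6.69 in isp-1, a rise of 0.99 (SE 0.24, adjusted p = 0.00474). nlp-89 stood at 4.30, 4.63 and 4.04 in isp-1 ced-4, against 3.45, 3.38 and 3.50 in isp-1, a rise of 0.88 (SE 0.23, adjusted p = 0.00786). Neither nlp-17 nor nlp-89 overlapped between the groups. For nlp-89 isp-1 lay under 3.68 on every array, and the isp-1 ced-4 mean was 0.64 above it. The 34 falls were 26 to 35 under the other settings that kept all arrays and 25 to 37 without 1 array. Of 14 tested neuron markers 1 rose and none fell in the same comparison, and their median difference was -0.01. Of 11 body wall muscle genes 7 fell and of 11 sperm genes all 11 fell, with medians of -0.46 and -1.47, and their part in the result was not tested.

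**Figure D3:**
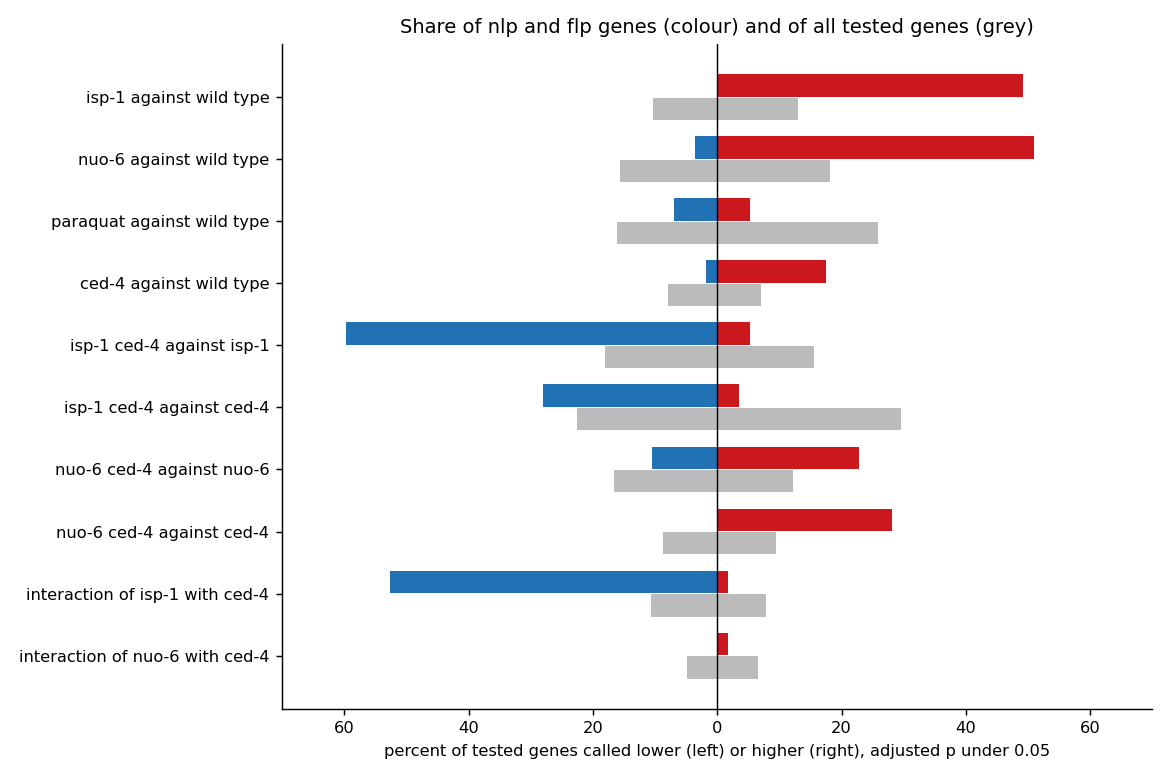
Percent of the 57 tested nlp and flp genes, in colour, and of all 9652 tested genes, in grey, called lower, to the left, or higher, to the right, in each of the 10 comparisons. The longest coloured bars are the falls in isp-1 ced-4 relative to isp-1, at 59.6%, and in the interaction of isp-1 with ced-4, at 52.6%, and the rises in nuo-6 and isp-1 against wild type, at 50.9% and 49.1%.

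Relative to ced-4, 16 of the 57 genes fell in isp-1 ced-4 and 2 rose, 28.1% and 3.51%, beside 22.6% and 29.5% of all tested genes. The share that fell is near that of all tested genes and is no result about these genes, and the median difference was -0.34 over the 57 and 0.14 over all tested genes. nlp-89 stood at 4.30, 4.63 and 4.04 in isp-1 ced-4, against 6.20, 5.75 and 5.85 in ced-4. The groups lay more than 1 unit apart, a fall of 1.61 (SE 0.23, adjusted p = 2.84e-05). nlp-1 stood at 4.32, 4.26 and 3.95 in isp-1 ced-4, against 5.55, 5.47 and 5.64 in ced-4. It fell by 1.38 (SE 0.23, adjusted p = 0.00013), with tight values in both groups. nlp-33 stood at 9.07, 8.45 and 8.41 in isp-1 ced-4, against 10.14, 9.93 and 9.95 in ced-4. All 3 double mutant arrays were lower, and it fell by 1.36 on average (SE 0.32, adjusted p = 0.00202).

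flp-5 stood at 6.51, 6.39 and 6.23 in isp-1 ced-4, against 7.45, 7.70 and 7.23 in ced-4, a fall of 1.09 (SE 0.17, adjusted p = 7.75e-05). nlp-80 stood at 7.31, 7.59 and 7.68 in isp-1 ced-4, against 8.58, 8.62 and 8.57 in ced-4, a fall of 1.06 (SE 0.27, adjusted p = 0.0036). flp-10 stood at 6.32, 6.07 and 5.61 in isp-1 ced-4, against 6.96, 6.95 and 7.14 in ced-4, a fall of 1.01 (SE 0.22, adjusted p = 0.00107). None of the 3 overlapped between the groups. nlp-7 stood at 6.66, 6.96 and 6.75 in isp-1 ced-4, against 6.27, 5.71 and 5.74 in ced-4. It rose by 0.89 (SE 0.20, adjusted p = 0.00129), all double mutant arrays being higher. nlp-81 stood at 4.73, 4.58 and 4.37 in isp-1 ced-4, against 4.02, 4.04 and 4.19 in ced-4, and its rise of 0.48 (SE 0.19, adjusted p = 0.0399) lost its call without any of 5 arrays, at 0.39 to 0.53.

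flp-1 differed by -0.91 between isp-1 ced-4 and ced-4 (adjusted p = 0.066) and flp-2 by 0.27 (adjusted p = 0.427), neither past the threshold. A second tested probe set of flp-2 had the other sign, at -0.25, and was not called either (adjusted p = 0.526). Other falls were those of nlp-55 by 0.96, nlp-61 by 0.93, nlp-51 by 0.92, flp-12 by 0.75, nlp-50 by 0.68 and flp-15 by 0.62. Those of nlp-51, flp-12 and flp-15 each ended without any of 4 arrays, at -0.96 to -0.76, -0.73 to -0.69 and -0.71 to -0.45. The 2 rises and 16 falls were 4 and 9 after median centring and 1 and 21 after cyclic loess, and these scalings moved the median of all tested genes to 0.35 and -0.03, where it was 0.14 before. In a fit of isp-1 ced-4 and ced-4 alone the counts were 3 and 28. In the same comparison 8 of 9 molting genes fell, with a median of -2.07, 7 of 11 hypodermis genes fell and 2 rose, and 3 of 14 neuron markers fell and 3 rose, with a median of -0.04. For 7 of the 8 molting and 3 of the 7 hypodermis genes that fell, isp-1 ced-4 lay under 3.68 on every array, so these sizes are uncertain. Of 11 sperm genes 9 fell, with a median of -2.70, of 14 oocyte and early embryo genes 13 rose, with a median of 0.64, and 5 of 11 body wall muscle genes fell. The part of these lists was not tested.

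In nuo-6 ced-4 relative to nuo-6, 13 of the 57 genes rose and 6 fell, 22.8% and 10.5%, beside 12.2% and 16.6% of all tested genes. The share that fell is below that of all tested genes and is no result about these genes as a set. The median difference was 0.10 over the 57 and -0.07 over all tested genes. nlp-89 stood at 6.17, 5.51 and 5.77 on the nuo-6 ced-4 arrays, against 3.36, 3.00 and 3.64 in nuo-6. The groups lay almost 2 units apart, and the rise was 2.49 (SE 0.23, adjusted p = 3.41e-07), a size that is uncertain since nuo-6 lay under 3.68 on every array. The nuo-6 ced-4 mean was 2.14 above it. nlp-17 stood at 8.37, 8.53 and 8.34 in nuo-6 ced-4, against 6.58, 6.98 and 6.97 in nuo-6. It rose by 1.57 (SE 0.24, adjusted p = 0.000113) without overlap. nlp-61 stood at 5.36, 5.33 and 5.63 in nuo-6 ced-4, against 4.27, 4.03 and 3.96 in nuo-6. The double mutant arrays were more than 1 unit higher, a rise of 1.35 (SE 0.17, adjusted p = 1.75e-05).

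nlp-12, a cholecystokinin-like gene of the stretch-sensitive neuron DVA that tunes locomotion, stood at 7.12, 6.96 and 6.90 in nuo-6 ced-4, against 6.06, 5.64 and 5.89 in nuo-6. Its values did not overlap and rose by 1.13 (SE 0.26, adjusted p = 0.00372). nlp-20 stood at 9.80, 9.84 and 9.96 in nuo-6 ced-4, against 8.92, 9.17 and 8.83 in nuo-6, a rise of 0.89 (SE 0.22, adjusted p = 0.0049). nlp-33 stood at 9.57, 9.73 and 9.53 in nuo-6 ced-4, against 8.88, 9.37 and 7.81 in nuo-6. Its rise of 0.92 (SE 0.32, adjusted p = 0.0381) was 0.48 without the low nuo-6 replicate 3 and lost its call there and without any double mutant array.

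Among the falls, flp-17 stood at 4.75, 5.15 and 5.42 in nuo-6 ced-4, against 6.24, 7.25 and 6.51 in nuo-6. No values overlapped, and it fell by 1.56 (SE 0.48, adjusted p = 0.0215). nlp-16 stood at 4.26, 4.54 and 4.51 in nuo-6 ced-4, against 6.44, 5.45 and 5.81 in nuo-6. It fell by 1.47 (SE 0.27, adjusted p = 0.000685), but its second probe set differed by -0.50 and was not called (adjusted p = 0.15). flp-6 stood at 5.37, 5.75 and 6.01 in nuo-6 ced-4, against 6.84, 7.03 and 6.64 in nuo-6, a fall of 1.13 (SE 0.39, adjusted p = 0.035). flp-13 stood at 3.69, 3.93 and 3.80 in nuo-6 ced-4, against 4.67, 4.33 and 4.64 in nuo-6, a fall of 0.74 (SE 0.24, adjusted p = 0.0257). nlp-49 stood at 4.69, 4.75 and 4.70 in nuo-6 ced-4, against 5.68, 5.44 and 5.22 in nuo-6, a fall of 0.73 (SE 0.16, adjusted p = 0.00251). nlp-8 stood at 4.18, 4.00 and 4.24 in nuo-6 ced-4, against 4.79, 4.87 and 4.86 in nuo-6, a fall of 0.70 (SE 0.23, adjusted p = 0.0308). None of these overlapped between the groups. The call of flp-17 ended without 3 of the arrays, of flp-13 without 4, of flp-6 without 5 and of nlp-8 without each of the 6, at -1.58 to -1.27, -0.74 to -0.68, -1.23 to -0.96 and -0.75 to -0.63.

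flp-1 and flp-2 differed by -0.46 and 0.10 between nuo-6 ced-4 and nuo-6 (adjusted p = 0.411 and 0.813). Smaller rises included nlp-55 at 0.82, nlp-1 at 0.76, flp-24 at 0.74, nlp-81 at 0.60 and flp-22 at 0.56. Of those, nlp-1, nlp-81 and flp-22 lost their calls without 3, 4 and 5 of the arrays, at 0.61 to 0.73, 0.55 to 0.60 and 0.49 to 0.60. The 6 falls became 2 to 4 without 1 array and 10 in a fit of these 2 groups alone. All 9 tested molting genes rose in the same comparison, with a median of 2.15, and 7 of 11 hypodermis genes rose and 2 fell. For 7 of the 9 molting and 3 of the 7 hypodermis genes nuo-6 lay under 3.68 on every array, so these sizes are uncertain. Of 14 neuron markers 1 rose and 1 fell. The part of these genes was not tested.

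Against ced-4, 16 of the 57 genes rose in nuo-6 ced-4 and none fell, 28.1% and 0%, beside 9.51% and 8.68% of all tested genes, and 28 of the 57 passed an unadjusted p under 0.05, 49.1% beside 31.7% of all tested genes. The median difference was 0.51 over the 57 and -0.03 over all tested genes. flp-11 stood at 7.64, 7.56 and 7.74 in nuo-6 ced-4, against 6.36, 6.68 and 6.09 in ced-4. The double mutant arrays were tight and well above ced-4, a rise of 1.27 (SE 0.42, adjusted p = 0.0465). flp-2 stood at 7.26, 7.08 and 6.92 in nuo-6 ced-4, against 6.27, 5.76 and 5.66 in ced-4. It rose by 1.19 (SE 0.27, adjusted p = 0.00555) without overlap, and its second probe set by 1.00 (adjusted p = 0.0397). nlp-11 stood at 7.60, 7.44 and 7.55 in nuo-6 ced-4, against 6.34, 6.59 and 6.53 in ced-4, a rise of 1.04 (SE 0.33, adjusted p = 0.0389).

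nlp-35 stood at 3.93, 3.74 and 4.02 in nuo-6 ced-4, against 2.89, 2.63 and 3.11 in ced-4, a fitted difference of 1.02 (SE 0.31, adjusted p = 0.0285), with ced-4 under 3.68 on every array and the nuo-6 ced-4 mean 0.21 above it. nlp-80 stood at 9.53, 9.39 and 9.70 in nuo-6 ced-4, against 8.58, 8.62 and 8.57 in ced-4, a rise of 0.95 (SE 0.27, adjusted p = 0.0229). nlp-61 stood at 5.36, 5.33 and 5.63 in nuo-6 ced-4, against 4.55, 4.68 and 4.33 in ced-4, a rise of 0.92 (SE 0.17, adjusted p = 0.00126). The groups did not overlap for any of the 3. flp-1 differed by 0.58 (adjusted p = 0.357). The count of 16 was 7 to 9 without any 1 of the 6 arrays and 38 in a fit of these 2 groups alone. Among named genes, the calls of flp-11, nlp-11, nlp-99 and nlp-12 ended without each of the 6 arrays, at 1.12 to 1.42, 0.97 to 1.09, 0.83 to 0.96 and 0.72 to 0.84, and those of nlp-35 and nlp-80 without 5 of them, at 0.90 to 1.10 and 0.87 to 0.96. nlp-21 and nlp-81 lost theirs without 3 and 2 arrays, at 0.80 to 0.83 and 0.67 to 0.68. The calls of flp-2 and nlp-61 were not lost without any 1 array.

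Whether a mitochondrial mutation made a different change with ced-4 present was tested as an interaction, the difference of the double mutant from ced-4 minus the difference of the single mutant from wild type. For isp-1, the interaction was called below 0 for 30 of the 57 genes and above 0 for 1, 52.6% and 1.75%, beside 10.6% and 7.76% of all tested genes. Called or not, it was above 0 for 3 of the 57. The median was -1.01 over the 57 and 0.06 over all tested genes, and -0.81 and 0.06 without wild type replicate 1. The 30 were 11 flp and 19 nlp genes. The single and double mutant contrasts compare different arrays, but their p-values share a spread fitted over all 22. Of the 28 genes that rose in isp-1, 1 also rose in isp-1 ced-4 against ced-4, nlp-81, which is 3.57% of the 28 and 50% of the 2 that rose there. Another 9 fell there, flp-5, flp-12, flp-24, nlp-1, nlp-6, nlp-50, nlp-51, nlp-55 and nlp-80, and 18 were not called. The same shares over all tested genes were not taken, so these counts have no background beside them. Other lists had called isp-1 interactions too: 7 of 9 molting genes below 0, with a median of -1.83, 7 of 11 hypodermis genes below and 1 above, with a median of -1.67, and 4 of 11 sperm genes below, with a median of -1.42. For 7 of the 8 molting genes that fell against ced-4, isp-1 ced-4 lay under 3.68 on every array, so the molting sizes are uncertain. Of 14 neuron markers 1 was called above 0 and none below, with a median of 0.07. The part of these lists was not tested.

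nlp-80 had the interaction furthest below 0, at -2.35 (SE 0.37, adjusted p = 0.000253). Its difference was -1.06 in isp-1 ced-4 against ced-4 and 1.29 in isp-1 against wild type. nlp-1 followed at -2.29 (SE 0.32, adjusted p = 6.46e-05), with -1.38 beside 0.92 for the same 2 contrasts. Next was nlp-51 at -2.05 (SE 0.46, adjusted p = 0.00502), with -0.92 beside 1.13. nlp-7 was the 1 gene on the other side, at 1.02 (SE 0.27, adjusted p = 0.0151), with 0.89 beside -0.14. In isp-1, nlp-7 stood at 5.97, 6.03 and 6.09, against 5.85, 5.95, 6.68 and 6.20 in wild type, and those values overlapped. The interaction of flp-1 was -1.79 (adjusted p = 0.0313) and that of flp-2 was -1.08, just short of the threshold (adjusted p = 0.0509). A second tested probe set of flp-2 differed by -0.25 in isp-1 ced-4 against ced-4, where the one used gave 0.27. In isp-1 against wild type the second set differed by 1.47, beside 1.35 for the one used, and its interaction is not given. The calls of nlp-18, flp-19, flp-11 and flp-1 each ended without 4 to 7 of the arrays, at -1.94 to -1.78, -1.90 to -1.72, -1.89 to -1.67 and -1.83 to -1.71. The 30 were also 30 without wild type replicate 1, 52.6% beside 11.3% of all tested genes. They were 16 without isp-1 replicate 2, ced-4 replicate 3 or isp-1 ced-4 replicate 2, 17 without ced-4 replicate 2, and 14 in a fit of these 4 groups alone.

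For nuo-6, the interaction was called above 0 for 1 of the 57 genes and below 0 for none, 1.75% and 0%, beside 6.49% and 4.91% of all tested genes, and 6 of the 57 passed an unadjusted p under 0.05, 10.5% beside 26.6% of all tested genes. Called or not, it was above 0 for 23 of the 57. The median was -0.06 over the 57 and -0.07 over all tested genes, and without wild type replicate 1 it was 0.09 and -0.09. Of 11 sperm genes 4 had a called interaction above 0 and of 14 oocyte and early embryo genes 4 had one below, and their part was not tested. The gene was nlp-26, at 1.42 (SE 0.34, adjusted p = 0.0163), with a difference of 0.59 in nuo-6 ced-4 against ced-4 and of -0.83 in nuo-6 against wild type. nlp-26 stood at 9.52, 9.57 and 9.65 in nuo-6 ced-4, against 9.0, 8.90 and 9.08 in ced-4. Of the 29 genes that rose in nuo-6, 12 also rose in nuo-6 ced-4 against ced-4, which is 41.4% of the 29 and 75.0% of the 16. None of the 29 fell there, and all 29 had a difference above 0. Here too the same shares over all tested genes were not taken. These 12 were flp-2, flp-11, flp-24, nlp-6, nlp-11, nlp-21, nlp-35, nlp-50, nlp-61, nlp-80, nlp-81 and nlp-99. For nlp-99 a second tested probe set gave 0.57 in nuo-6 ced-4 against ced-4 and was not called (adjusted p = 0.148). The 2 interactions share the ced-4 and wild type arrays, and the difference between them was not tested.

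**Figure D4:**
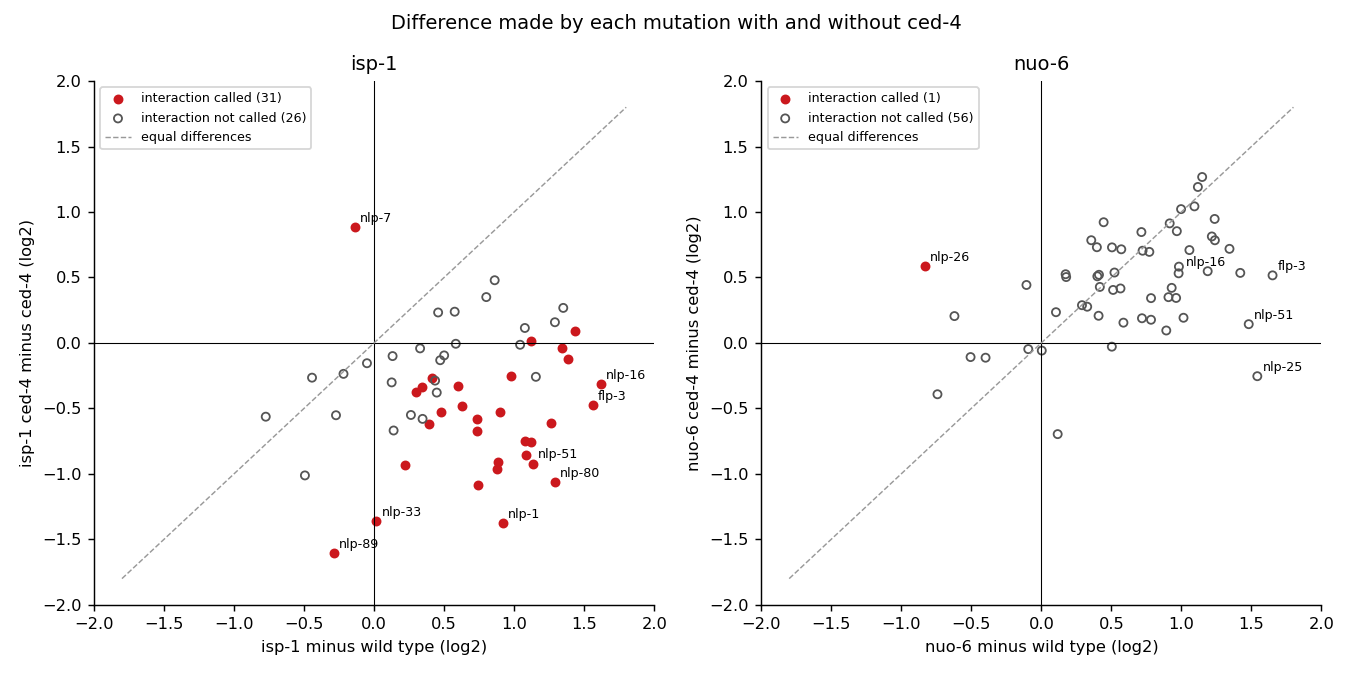
Log2 difference of each tested nlp or flp gene in the single mutant against wild type, on the horizontal axis, and in the double mutant against ced-4, on the vertical axis, for isp-1 on the left and nuo-6 on the right, with the dashed line marking equal differences. For isp-1 30 of the 31 filled points, whose interaction was called, lie below the line and nlp-7 lies above it, and for nuo-6 the 1 filled point is nlp-26, above the line.

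The genes that make, load and sense the peptides were taken from 4 lists. Of 9 tested peptide processing genes, none rose and 1 fell in isp-1 against wild type, the furin-like convertase gene kpc-1 at -0.80 (adjusted p = 0.0195), and the median was 0.51, or 0.08 without wild type replicate 1. In nuo-6 2 of the 9 rose, the amidation gene pghm-1 by 1.19 (adjusted p = 0.0131) and sbt-1, the chaperone of the convertase EGL-3, by 1.04 (adjusted p = 0.0152). They were 0.72 and 0.59 and still called without wild type replicate 1, which is low in this list (adjusted p = 0.00806 and 0.00318). In isp-1 ced-4 relative to isp-1 3 fell and 1 rose. The falls were those of pghm-1 by 1.31 (adjusted p = 0.0112), pgal-1, which completes amidation, by 1.10 (adjusted p = 0.00371), and egl-3, the main neuropeptide convertase, by 0.99 (adjusted p = 0.0267). egl-3 lay between 8.82 and 9.28 in isp-1 ced-4, against 9.79 to 10.28 in isp-1. kpc-1 rose by 1.41 (adjusted p = 0.000727), and its interaction of 1.79 was also called (adjusted p = 0.0015). None of the 9 was called in nuo-6 ced-4 relative to nuo-6 or against ced-4. With paraquat aex-5, an intestinal convertase gene of the defecation program, fell by 0.65 (adjusted p = 0.00835), and in ced-4 none was called. When wild type replicate 1 was left out, pgal-1 was also called lower with paraquat, at -0.41 (adjusted p = 0.046), and in ced-4 pghm-1 and egl-21, a carboxypeptidase gene, at -0.57 and -0.67 (adjusted p = 0.0334 and 0.0358).

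Of 11 tested genes for dense core vesicles, 3 rose and none fell in both isp-1 and nuo-6 against wild type. They were pkc-1, a kinase that promotes peptide release, at 0.68 and 0.66, rbf-1 (rabphilin) at 0.54 and 0.66, and eipr-1, a vesicle biogenesis gene, at 0.62 and 1.03. With paraquat eipr-1 rose by 1.07 (adjusted p = 0.000214), and tom-1 (tomosyn), an inhibitor of release, fell by 1.25 (adjusted p = 0.000128). In isp-1 ced-4 relative to isp-1 rbf-1 fell by 0.45 and no other gene of the list was called. The 11 had medians of 0.00 in isp-1, 0.16 in nuo-6 and -0.05 in isp-1 ced-4 relative to isp-1.

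Of 4 tested peptide genes outside the nlp and flp families 3 rose in isp-1, snet-1, which acts in food-related memory, by 1.24, and pdf-2 and pdf-1, which promote roaming, by 1.06 and 0.62. These were 0.80, 0.80 and 0.48, all called, without wild type replicate 1. In nuo-6 pdf-1 rose by 0.94, pdf-2 by 0.92 and lury-1, a feeding and egg-laying peptide gene, by 0.57, the last of which was 0.43 and not called without wild type replicate 1 (adjusted p = 0.0622). In isp-1 ced-4 relative to isp-1, snet-1 fell by 2.31 (adjusted p = 0.000228), pdf-1 by 0.65, and pdf-2 by 0.96, a size that is uncertain since isp-1 ced-4 lay under 3.68 on every array. snet-1 lay between 4.80 and 5.46 in isp-1 ced-4, against 7.20 to 7.45 in isp-1. None of the 4 was called with paraquat or in ced-4, but snet-1 was lower in ced-4 without wild type replicate 1, at -0.49 (adjusted p = 0.0379).

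Only 11 of the 100 peptide receptor genes on the array were tested, so receptors are largely unread. The receptor of the PDF peptides, pdfr-1, lay between 5.52 and 6.69 in isp-1 and between 6.45 and 6.87 in nuo-6, against 2.96 to 3.32 in wild type. It was called higher in isp-1 (adjusted p = 2.74e-05) and in nuo-6 (adjusted p = 3.11e-06), with fitted differences of 2.97 and 3.48. Wild type lay under 3.68 on every array, so these sizes are uncertain, and the means of isp-1 and nuo-6 were 2.45 and 2.96 above 3.68. It also rose in both double mutants against ced-4, by 2.29 with isp-1 and 2.56 with nuo-6, where ced-4 lay between 3.62 and 3.80. egl-6, the receptor of the flp-10 and flp-17 peptides, lay between 4.25 and 4.61 with paraquat, against 3.19 to 3.42 in wild type, and was called higher (adjusted p = 4.64e-06), its paraquat mean 0.77 above 3.68 and wild type under it on every array. Without the paraquat arrays egl-6 would not have reached 3.68 on 3 arrays, so its call is partly set by the filter. npr-5, a receptor of FLP-18, rose by 0.85 in isp-1 (adjusted p = 0.0408), but by 0.62 and without a call when wild type replicate 1 was left out (adjusted p = 0.112), and by 1.19 with paraquat (adjusted p = 0.00261). It fell by 1.76 in isp-1 ced-4 relative to isp-1 (adjusted p = 0.000649). It was also called lower in nuo-6 ced-4 relative to nuo-6 (adjusted p = 0.000121), where nuo-6 ced-4 lay under 3.68 on every array and the nuo-6 mean was 1.4 above it. dmsr-1, the receptor of the FLP-13 sleep peptides, fell by 0.91 in isp-1 ced-4 relative to isp-1 (adjusted p = 0.0166). npr-37 was called higher in isp-1 and nuo-6 (adjusted p = 0.001 and 0.00106), where wild type lay under 3.68 on every array and the means of isp-1 and nuo-6 were only 0.18 and 0.10 above it. It reached 3.68 only on arrays of isp-1 and nuo-6, so these calls too are partly set by the filter.

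Markers of neurons and of other tissues were read in the same comparisons. Of 20 neuron markers 19 were on the array and 14 tested, with unc-10, rgef-1, sng-1, unc-33 and maco-1 near the background on every array. In isp-1 1 neuron marker rose, unc-119, and none fell, in nuo-6 2 rose and 1 fell, and their median differences were 0.02 and 0.10. The unc-119 call ended without wild type replicate 1 (adjusted p = 0.062). In isp-1 6 of 11 sperm genes fell and 1 rose, with a median of -0.97, and in nuo-6 likewise 6 fell and 1 rose, with a median of -1.01. Of 14 oocyte and early embryo genes 3 rose in isp-1 and 3 in nuo-6. The mean of the 14 neuron markers lay between 5.94 and 6.23 in isp-1 ced-4. It lay between 6.02 and 6.17 for nuo-6 ced-4, 5.81 and 6.10 in isp-1, 5.97 and 6.16 in nuo-6, 5.85 and 5.97 with paraquat, 5.99 and 6.20 in ced-4, and 5.87 and 6.02 in wild type. ric-19 and unc-104 are on both the neuron and the dense core vesicle list. Of 8 glia genes on the array 2 were tested, so glia are hardly read. Of 13 intestine genes 5 fell with paraquat, or 3 without wild type replicate 1, beside the fall of the intestinal nlp-40, and none rose. The molting genes had means between 5.47 and 5.73 in ced-4 and between 5.48 and 5.59 in nuo-6 ced-4, against 2.84 to 3.31 in wild type, and between 3.06 and 3.62 in isp-1 ced-4. Wild type lay under 3.68 on every array for 6 of the 8 that rose in ced-4, so the sizes of these differences are uncertain. A gene that is low elsewhere passes the filter only through a group where it is high. The counts of molting genes called are therefore partly set by the filter. Sperm genes were lowest in isp-1 ced-4 and paraquat, at means of 4.33 to 6.08 and 5.16 to 5.46, against 7.37 to 8.17 in wild type, and with paraquat 10 of 11 sperm genes fell and all 14 oocyte and early embryo genes rose. In nuo-6 ced-4 relative to nuo-6 3 sperm genes rose and 8 oocyte and early embryo genes fell. The part of these lists in the neuropeptide values was not tested.

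**Figure D5:**
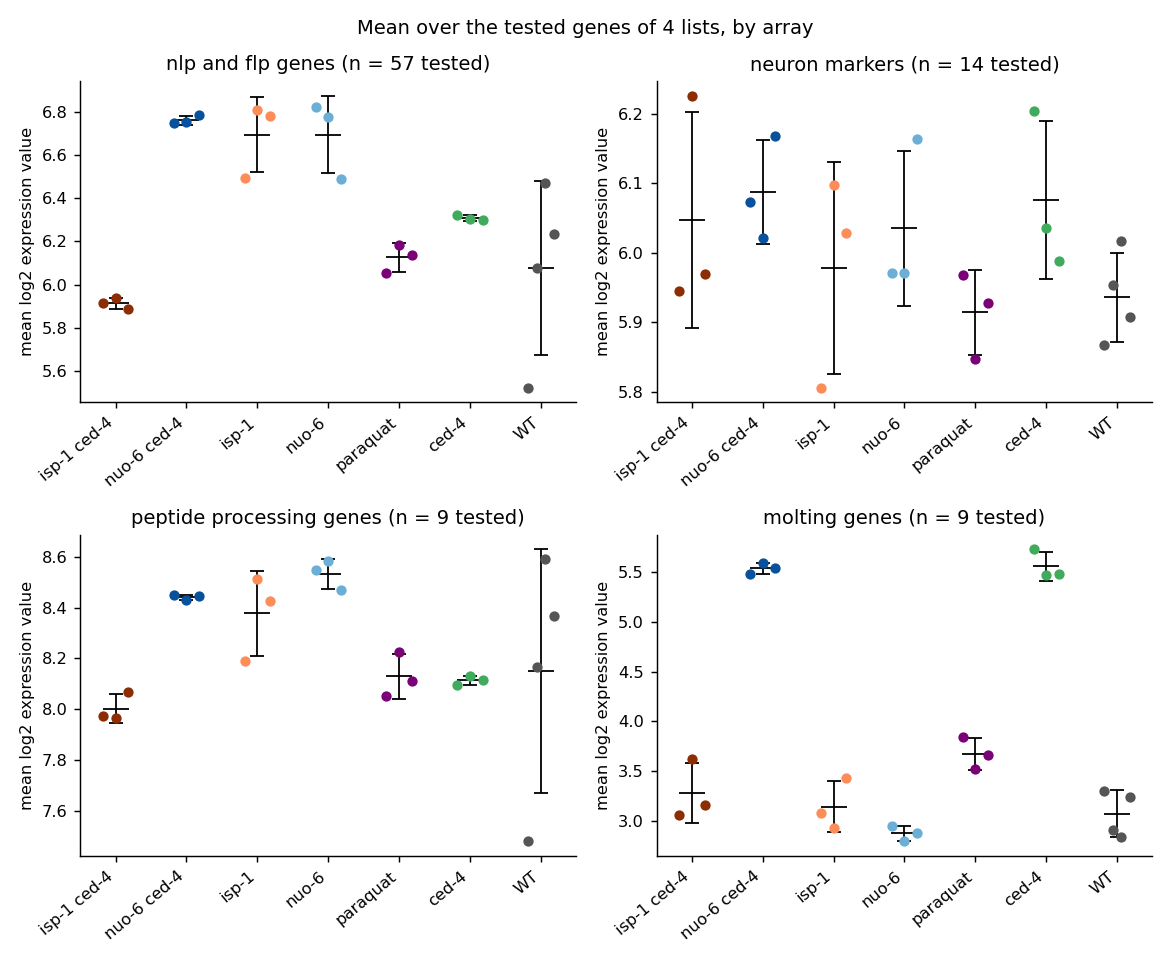
Mean log2 value per array over the tested genes of 4 lists, with points for arrays and bars for the mean and SD of each group; vertical axes differ between panels and do not start at 0. The nlp and flp genes are at 5.89 to 5.94 in isp-1 ced-4, and for nuo-6 ced-4 they are at 6.75 to 6.79, the neuron markers stay between 5.81 and 6.23 on all 22 arrays, and the molting genes separate ced-4 and nuo-6 ced-4 from the rest.

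The remaining genes were at the margins. Of the 57 tested genes 51 were called in at least 1 of the 10 comparisons, and flp-4, flp-8, nlp-15, nlp-25, nlp-47 and nlp-91 in none. The share of all tested genes called in at least 1 was not taken, so the 51 are no result about these genes. nlp-91 varied least between groups, its means spanning 0.16. nlp-47, which encodes a peptide related to gonadotropin-releasing and adipokinetic hormones, stood at 7.26, 7.10 and 6.98 in isp-1 ced-4. Its values were 6.91, 7.21 and 7.23 for nuo-6 ced-4, 7.64, 8.21 and 7.75 in isp-1, 7.56, 7.71 and 7.28 in nuo-6, 7.23, 7.33 and 7.34 with paraquat, 7.02, 6.65 and 6.98 in ced-4 and 5.68, 7.78, 8.39 and 7.79 in wild type. Wild type replicate 1 was the lowest and replicate 3 the highest of the 22 arrays, so every group overlapped with wild type. A second probe set of flp-8 was called lower in isp-1 ced-4 relative to isp-1, a difference of -0.71 (adjusted p = 0.00906), where the one used differed by -1.01 and was not called. Against ced-4 the second was also called lower, at -0.98 (adjusted p = 0.000414), where the one used differed by -0.67 and was not called. The genes not tested were flp-21, flp-23, flp-27, flp-32, nlp-2, nlp-5, nlp-14, nlp-22, nlp-23, nlp-32, nlp-39, nlp-45, nlp-52, nlp-53, nlp-57, nlp-60, nlp-62, nlp-67, nlp-68, nlp-69 and nlp-90. None of these 21 exceeded 3.96 on any array, and their differences are not given.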

How the data were processed

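Expression was measured on 22 1-colour Affymetrix C. elegans arrays with a 3' amplification kit, 3 per group and 4 for untreated wild type, grouped by the titles in the labels. The deposited values are log2 expression values per probe set, made by the authors with GCRMA, per the submitters' processing notes. The log base is not stated in the sources used here, and the range of 0.926 to 15.3 is that of log2 values. GCRMA corrects background by probe sequence and scales arrays to 1 distribution, so low values crowd together and folds of dim genes are uncertain. All value columns were matched to a sample. No sequence, scanner file or genome coordinate was used here.

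Of 22625 probe sets, 77 controls were left out, and a probe set was tested if it reached 3.68, the median of the table, on at least 3 arrays, which left 12639. Names came from the platform annotation: 20766 probe sets had 1 symbol, of which 20701 were updated through their gene number, 887 had several and 972 none. Probe sets of several symbols named no gene, and 2 of these list an nlp or flp gene. A gene was read from the tested probe set whose mean over the 22 arrays was highest. limma 3.58.1 in R 4.3.3 fitted 1 mean per group over all 22 arrays, and Benjamini-Hochberg adjustment ran over all tested probe sets. Calls are adjusted p under 0.05. The code was tested on simulated data.

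The genes and lists were chosen with earlier results of these data known. Values on every array are given for up to 6 called genes with the largest rise and 6 with the largest fall in a comparison, for flp-1 and flp-2, and for up to 3 each way per interaction. Other called genes, among them those added for a known role after their values were seen, are given by their difference. Alternatives were a stricter filter of 5 on 3 arrays, no filter, cyclic loess, median centring, a block for the replicate number, fitting the compared groups alone, and leaving out each array in turn. A fit of the compared groups without wild type replicate 1 was added after seeing the data. Replicate numbers are shared between groups and were not taken to pair the arrays. Of 63 same-numbered pairs, 12 had deviations from their group means that correlated above 0.1, and in none of 21 pairs of groups did all. This cannot exclude a batch shared by some arrays of 1 number. The highest correlations were 0.277 for replicate 1 of nuo-6 and isp-1 ced-4 and 0.249 for replicate 1 of isp-1 and nuo-6. The number of arrays limits the precision of every value.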

Additional observations from a re-analysis of the deposited data

Results flagged for a closer look

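In 6 of the 57 tested genes, the lowest of the 4 wild type arrays stood apart from the others by more than Dixon's critical value for its gap over the range of 4 arrays. They were flp-1, at 6.73 with a ratio of 0.856, nlp-3, at 3.37 with 0.845, nlp-25, at 3.47 with 0.969, nlp-64, at 3.72 with 0.872, nlp-80, at 6.85 with 0.843, all on replicate 1, and flp-22, at 7.46 with 0.870, on replicate 2. Chance gives such a ratio in about 1 group in 20. Groups of 3 arrays were not tested this way.

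The change made by isp-1 differed between the ced-4 and wild type backgrounds, by limma's interaction term with an adjusted p under 0.05, for 31 genes. Among the flp genes the interaction was -1.79 for flp-1, -2.03 for flp-3, -1.83 for flp-5, -1.23 for flp-7, -1.43 for flp-9, -1.88 for flp-11, -1.83 for flp-12, -0.68 for flp-14, -1.01 for flp-15, -1.88 for flp-19 and -1.31 for flp-24. For nlp-1 to nlp-18 it was -2.29 for nlp-1, -1.11 for nlp-6, 1.02 for nlp-7, -0.68 for nlp-9, -0.68 for nlp-10, -1.50 for nlp-11, -0.93 for nlp-13, -1.93 for nlp-16 and -1.95 for nlp-18. For the others it was -1.38 for nlp-33, -1.35 for nlp-35, -1.41 for nlp-50, -2.05 for nlp-51, -1.84 for nlp-55, -1.15 for nlp-61, -1.10 for nlp-64, -2.35 for nlp-80, -1.32 for nlp-89, -1.38 for nlp-99 and -1.0 for nlp-101. For nlp-35, wild type, ced-4 and isp-1 ced-4 lay under 3.68 on every array. So did wild type and isp-1 ced-4 for nlp-101 and isp-1 for nlp-89, and these sizes are uncertain. A second tested probe set of nlp-99 gave 0.50 in isp-1 ced-4 against ced-4 and 0.42 in isp-1 against wild type. Neither was called (adjusted p = 0.112 and 0.229), so the nlp-99 interaction rests on the probe set used. For nuo-6 the interaction differed from 0 for nlp-26, at 1.42.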

How the results depend on the processing

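The 34 falls in isp-1 ced-4 relative to isp-1 stayed within 1.5 times under every alternative run. With only the compared groups fitted, rises were 2 in isp-1, 10 in nuo-6, 1 with paraquat and 6 in ced-4 against wild type and 38 in nuo-6 ced-4 against ced-4. Falls were then 1 in nuo-6 against wild type, 28 in isp-1 ced-4 against ced-4, 2 in nuo-6 ced-4 against ced-4, 10 in nuo-6 ced-4 relative to nuo-6, and interactions called below 0 were 14 for isp-1 and 1 for nuo-6. Without wild type replicate 1 as well, rises were 4 in isp-1, 13 in nuo-6 and 1 with paraquat, and falls 1 in nuo-6 and 9 in ced-4. The stricter filter left 1 fall in nuo-6 and 1 rise in isp-1 ced-4 against ced-4. Cyclic loess gave 1 rise and 11 falls with paraquat and 1 rise in isp-1 ced-4 against ced-4, and median centring 7 rises with paraquat, 4 falls in nuo-6, and 4 rises and 9 falls in isp-1 ced-4 against ced-4. With the replicate block there were 0 falls in nuo-6 and 0 in ced-4, 28 rises in isp-1 and 28 in nuo-6; it moved no other count of calls by over 1.5 times.

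Without 1 array, rises ran from 16 to 34 in isp-1, 20 to 36 in nuo-6, 1 to 7 with paraquat, 8 to 13 in ced-4, 1 to 2 in isp-1 ced-4 against ced-4, 7 to 9 in nuo-6 ced-4 against ced-4, and 9 to 15 in nuo-6 ced-4 relative to nuo-6. Falls ran from 0 to 1 in isp-1, 1 to 4 in nuo-6, 3 to 8 with paraquat, 0 to 9 in ced-4, 25 to 37 in isp-1 ced-4 relative to isp-1, 11 to 16 against ced-4, and from 2 to 4 in nuo-6 ced-4 relative to nuo-6. Interactions called below 0 ran from 16 to 33 for isp-1 and 0 to 1 for nuo-6, and above 0 from 1 to 2 for nuo-6.

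Of the values of named genes under the alternatives, 1678 kept direction and call, 296 lost the call, 13 gained one and 15 changed sign, all of the last for flp-1 or flp-2 where neither was called. For flp-1 with paraquat, leaving out 1 array gave -0.2853 to 0.5123, the first without wild type replicate 1, also with only those groups fitted. In ced-4 it was 0.0833 with the block and -0.6052 to 0.1924 without 1 array, above 0 without wild type replicate 2, 3 or 4. For flp-2 it was -0.0005 with paraquat after cyclic loess, and in ced-4 -0.0114 after median centring and -0.1826 to 0.2704 without 1 array, below 0 without wild type replicate 1 or ced-4 replicate 1. In the nuo-6 interaction leaving out 1 array gave -0.6554 to 0.1422 for flp-1, above 0 without wild type replicate 1, and -0.1698 to 0.2832 for flp-2, below 0 without wild type replicate 3, ced-4 replicate 3 or nuo-6 ced-4 replicate 1. The cause was not tested. Values near 3.68 lie close to the background, where GCRMA compresses differences.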

Other observations

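nlp-25 was called in no comparison and stood at 4.32, 9.26 and 3.79 on the nuo-6 arrays, against 3.47, 4.51, 4.52 and 4.49 in wild type.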
